A study of Homo sapiens with 12 samples.

Results

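The mitochondrial ribosomal protein genes are the nuclear genes whose symbols begin with MRPL or MRPS, followed by a number and in some cases a letter. Of the 17520 genes in the expression table, 76 carried such a symbol, 47 of them MRPL and 29 MRPS. They were taken by symbol alone, but the choice of this family was made with earlier results of these data known. In 75 of the 76 the values were high enough to be tested. The exception was MRPL30, a large-subunit gene, with values of 3, 6 and 3 in the insulin libraries and 1, 1 and 1 in the Torin1 libraries.

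HEK293E is an established line derived from human embryonic kidney cells. All cells had been starved of serum overnight and then received 200 nM insulin. The series text gives the time as 30 h, and whether hours or minutes are meant could not be settled here. One group received insulin alone (insulin), and the other was also pretreated with 250 nM Torin1 (insulin+Torin1), a drug that blocks the kinase mTOR. Each condition had 3 input RNA-seq libraries and 3 libraries of miCLIP, a method in which an m6A antibody, bound to poly(A) RNA and fixed there by crosslinking, leaves substitutions at N6-methyladenosines (m6A). A group without insulin was not analysed here, so every comparison is between insulin with Torin1 and insulin without it.

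Mitochondria keep a small genome that encodes core subunits of the respiratory chain, and they translate it on ribosomes of their own. The ribosomal RNAs are made inside the organelle, while every protein of the mitoribosome is encoded in the nucleus, translated in the cytosol and imported. Some of these proteins descend from bacterial ribosomal proteins, and others are found in mitoribosomes but not in bacterial ones. mTOR is a kinase that couples growth signals and nutrients to protein synthesis, and mitochondrial activity is among the processes it is known to govern.

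The short promoter element AAGATGGC recurred at the start of these genes and is shown here because members with opposite responses to Torin1 carried it. It is a binding motif of the transcription factor YY1, and near a gene's start it also forms the core of the TISU element, whose ATG is the start codon of very short leaders. RefSeq promoters (GRCh38.p14, 250 bases before to 50 after each start) were present for 68 members. The lines below give 30 bases on the gene's strand, 5′ to 3′, with the element in capitals. MRPL38, MRPL42, MRPL46 and MRPL50 rose with Torin1, MRPL22 and MRPS7 fell, and MRPS18B did not pass the test.
MRPL38, chr17:75904855-75904884, minus strand: ggagggAAGATGGCggcgccctggtggcga
MRPL42, chr12:93467514-93467543, plus strand: attgaaacAAGATGGCgggttcgtggtgag
MRPL46, chr15:88467359-88467388, minus strand: gagaacgaAAGATGGCggcgcccgtaaggc
MRPL50, chr9:101398577-101398606, minus strand: ggatctcatcgAAGATGGCggcgcgatctg
MRPL22, chr5:154941093-154941122, plus strand: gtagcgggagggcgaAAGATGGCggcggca
MRPS7, chr17:75261887-75261916, plus strand: cgtggccagccAAGATGGCtgcccccgcag
MRPS18B, chr6:30617852-30617881, plus strand: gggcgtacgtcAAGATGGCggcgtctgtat

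Searched on both strands, AAGATGGC stood in the promoter of 21 of the 68 members (30.9%), against 6.09% of 10430 tested genes with a promoter and 3.52% of all 27305 genes with one. In 16 members it lay on the gene's strand after the start, with its first base between base 7 and base 36 of the transcript. That position held the element in 23.5% of members and 3.43% of tested genes. The element was present in 4 of the 21 members with a promoter that rose beyond 1.5-fold, in 5 of the 11 that fell beyond 1.5-fold and in 12 of the 35 not called beyond it. CCGGAAGT, a motif of ETS factors such as GABPA, stood in 12 members (17.6%, against 9.29% of tested genes). GCGCATGCG, part of the element of NRF1, a regulator of mitochondrial genes, stood in 3 members (4.41% against 3.97%). The E-box CACGTG was found in 10 (14.7% against 12.6%) and CCAAT in 23 (33.8% against 43.4%). None of these 5 motifs contains another, and a match is a description of letters, not of binding.

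Library totals of normalized values ran from 12424643 to 12528454 in the insulin group and from 11418114 to 11438881 in the Torin1 group. Of 6 renal and neuronal genes known from this line, 4 were tested, of which limma called 1 higher and 2 lower, the 2 beyond 1.5-fold (median log2 fold change -0.47). LHX1, a renal developmental gene, stood at 131 to 153 in the 6 libraries and the neuronal filament gene INA at 310 to 416, while the filament gene NEFM went from 187, 141 and 221 with insulin to 96, 95 and 71 with Torin1, and NEFH from 37, 55 and 41 to 2, 8 and 4. The summed level of this list was 672 to 768 with insulin and 653 to 658 with Torin1. Of 6 blood cell genes 3 were tested and 2 were lower, with a summed level of 151 to 168 with insulin and 48 to 55 with Torin1; the leukocyte genes PTPRC and CD3E were at 1 or below, and CD14 lay at 85 to 95 with insulin and at 0 to 6 with Torin1. Of 6 fibroblast and endothelial genes both of the 2 tested were higher, with a summed level of 189 to 243 and 538 to 551, most of it from COL1A1, and DCN was at 0 to 1. The part of such changes in the results was not tested. The replicates are called biological, but whether each had its own culture is not stated; the p-values therefore reflect the spread among these libraries alone, and that spread may be technical. In bulk RNA, fewer cells of a kind and less RNA per cell cannot be told apart.

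The 75 tested members split in both directions with Torin1. MRPS16 and MRPS33 of the small subunit and MRPL40 of the large subunit rose most, each by over 4-fold, and MRPL13 of the large subunit fell most, by 3.02-fold. With limma on log2(value + 1) and Benjamini-Hochberg adjustment over all 13842 tested genes, 35 members rose (46.7%) and 25 fell (33.3%) at an adjusted p below 0.05, and 15 passed in neither direction. The same test called 43.4% of all tested genes higher and 42.5% lower. A change beyond 1.5-fold, tested with limma's treat, was called upward in 24 members (32.0%) and downward in 12 (16.0%), against 25.0% and 22.5% of all tested genes. The 3 Torin1 libraries lay wholly above or wholly below the 3 insulin libraries in 61 members (81.3%), against 86.3% of all tested genes. The members' shares thus lay near those of the whole table, except that falls were the smaller part. The median log2 fold change was 0.11 (all tested genes 0.02), or 0.23 after scaling to equal library totals, with a range from -1.60 to 2.09 and an SD over members of 0.96 (all tested genes 1.28).

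**Figure D1:**
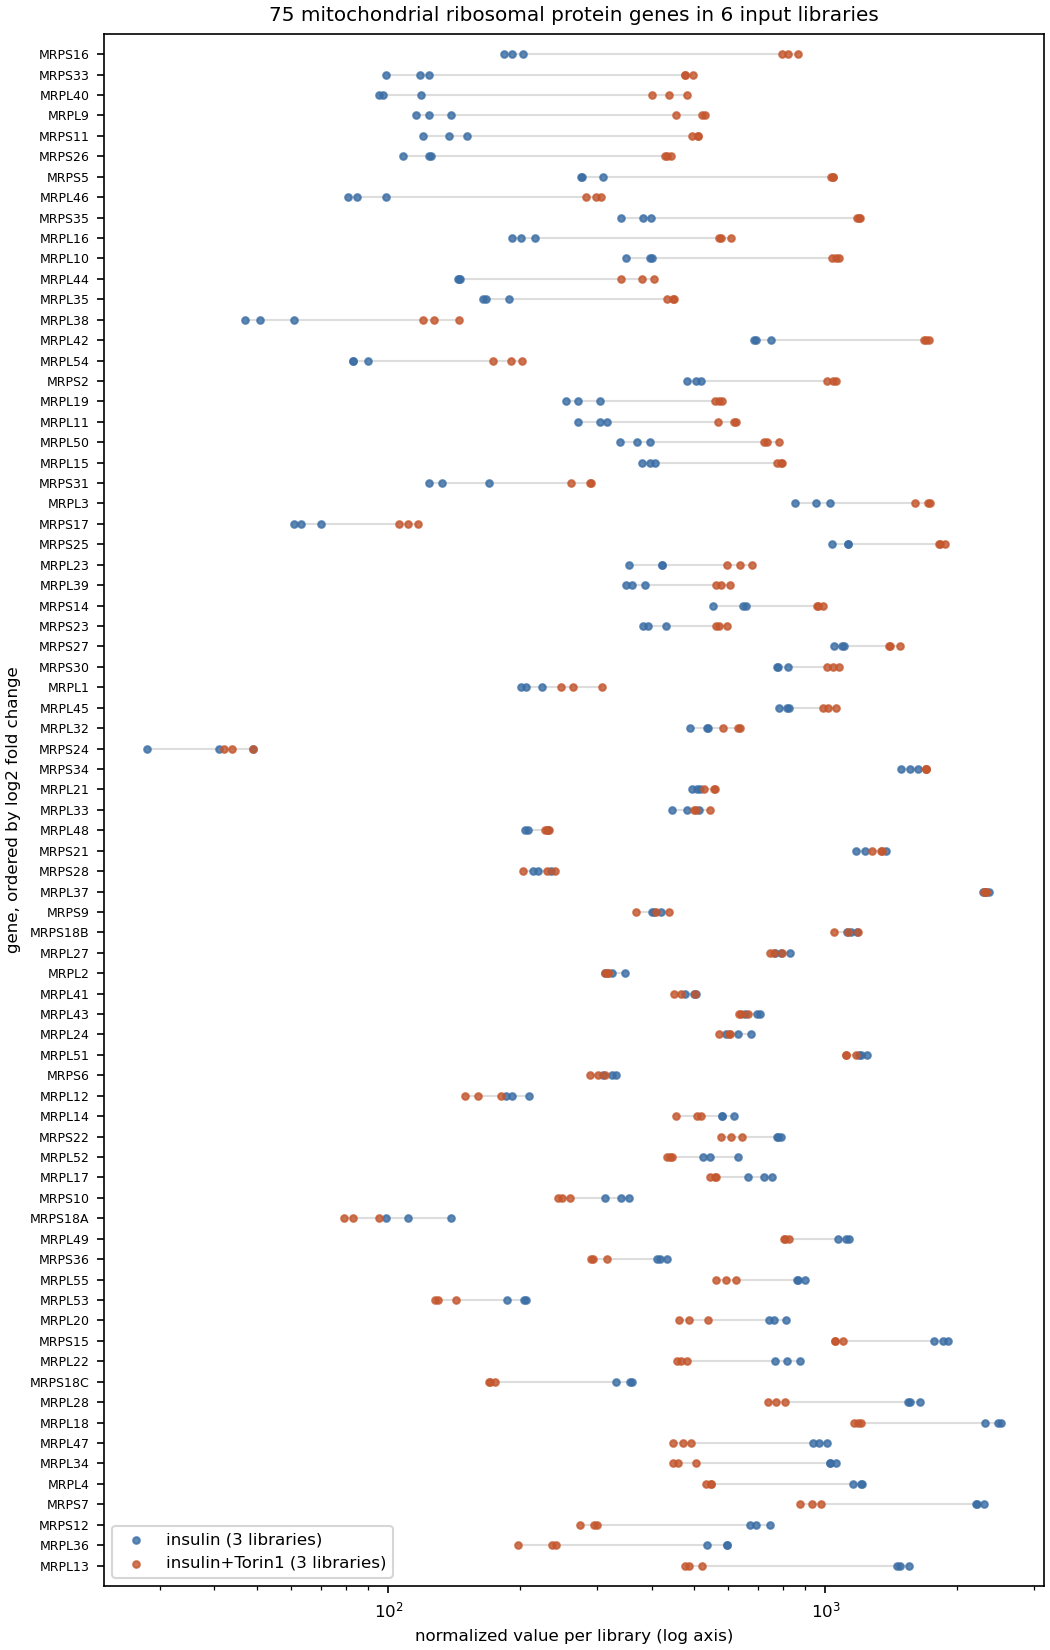
Normalized value of each of the 75 tested genes in each of the 6 input libraries (log axis), ordered by log2 fold change; blue points are insulin libraries and orange points insulin+Torin1 libraries. The upper rows, from MRPS16 (184 to 203 against 795 to 864), and the lower rows, down to MRPL13 (1458 to 1551 against 476 to 521), hold groups that lie apart, and rows around MRPL37 hold groups that overlap.

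Summed over members, the values were 46580, 46913 and 47972 with insulin and 50052, 49352 and 49670 with Torin1. As a share of the library these were 0.374% to 0.386% and 0.431% to 0.438%, and the groups did not overlap. Genes of the large subunit, which carries the peptidyl transferase centre, summed to 30020, 30244 and 30884 with insulin and 30371, 30029 and 30292 with Torin1, and there the groups overlapped. As a share of the library, however, the large subunit was at 0.241% to 0.249% with insulin and 0.263% to 0.266% with Torin1, with no overlap. Genes of the small subunit, which binds and decodes the mRNA, summed to 16148, 16250 and 16653 with insulin and 19365, 19032 and 19084 with Torin1, so every Torin1 library was higher. The values of this table are not per length, and these sums weigh long and abundant mRNAs most.

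By structural class, all 12 falls beyond 1.5-fold among the members were in genes counted with a bacterial homologue. AURKAIP1, a mitoribosomal protein gene under another symbol that was placed in neither class, also fell beyond 1.5-fold (log2 fold change -1.25). Of 45 tested genes with a bacterial homologue, 12 rose and 12 fell beyond 1.5-fold, where 25.0% and 22.5% of all tested genes did. The median log2 fold change of the 45 was -0.02, or 0.11 after scaling to equal library totals and -0.12 with quantile normalization. Among 29 tested genes for mitochondria-specific proteins, 12 rose and 0 fell beyond 1.5-fold, with a median of 0.40. At an adjusted p below 0.05, limma's plain test called 18 of them higher and 6 lower, where it called 43.4% and 42.5% of all tested genes. MRPL55, listed with the bacterial homologues, encodes a protein without one (mL55), and moving it left the counts beyond 1.5-fold in both classes the same, while the mitochondria-specific genes called lower went from 6 to 7. The difference between the classes was not tested.

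Both subunits contributed to the 2 classes. The small subunit's mitochondria-specific genes gave 5 rises and 0 falls beyond 1.5-fold of 10 (median 0.63), and its bacterial homologues 4 and 4 of 16 (median 0.04, but 0.17 after scaling to equal totals and -0.12 with quantile normalization). The large subunit's mitochondria-specific genes gave 7 and 0 of 19 (median 0.33), and its bacterial homologues 8 and 8 of 29 (median -0.05, but 0.07 after scaling to equal totals). MRPS30 and MRPS18A are placed with the large subunit, where their proteins sit. MRPS36, now known chiefly as a component of the 2-oxoglutarate dehydrogenase complex, is in no class; its values were 412, 419 and 435 with insulin and 316, 291 and 294 with Torin1.

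**Figure D2:**
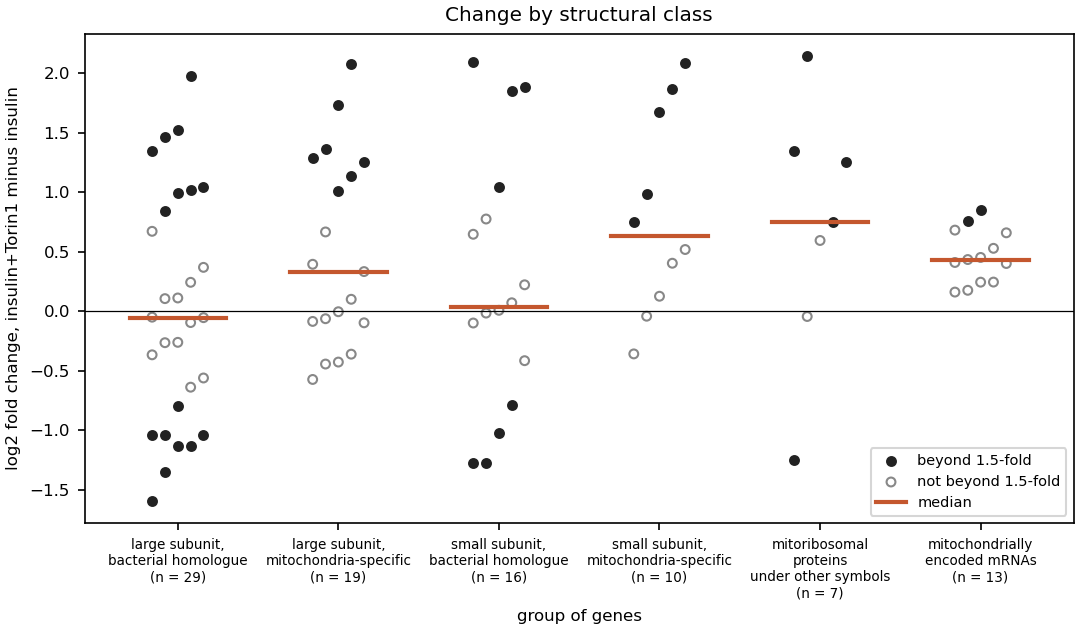
Log2 fold change (insulin+Torin1 minus insulin) of each tested gene by group; filled points passed limma's treat at 1.5-fold, open points did not, and the orange bar is the median. The mitochondria-specific groups have no filled point below 0. The bacterial homologues and the mitoribosomal proteins under other symbols have filled points on both sides.

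Among the members that rose, the 2 with the largest changes were in the small subunit. MRPS16 encodes a conserved protein of the small subunit body that is mutated in a combined respiratory chain deficiency. Its values were 184, 203 and 192 with insulin and 823, 795 and 864 with Torin1, a log2 fold change of 2.09 (SE 0.07) or 4.27-fold. Every Torin1 value lay far above every insulin value, and the same was true of each of the rises described next. MRPS33, a small mitochondria-specific protein, went from 99, 124 and 118 to 498, 478 and 478, a log2 fold change of 2.09 (SE 0.09). MRPS11 is the counterpart of bacterial S11 on the platform of the subunit. It had 138, 120 and 151 with insulin and 494, 512 and 510 with Torin1 (log2 fold change 1.89, SE 0.09).

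MRPS26 and MRPS35, both mitochondria-specific, and MRPS5, the counterpart of the bacterial protein S5 near the channel by which mRNA enters, rose as well. MRPS26 went from 124, 108 and 125 to 433, 429 and 444, a log2 fold change of 1.87 (SE 0.09). In MRPS5 the values were 278, 276 and 310 with insulin and 1043, 1032 and 1042 with Torin1 (1.85, SE 0.06). MRPS35 had 341, 398 and 382 against 1180, 1198 and 1196 (1.67, SE 0.06). The replicates of each condition lay within a narrow band in all 3 genes. MRPS31 (0.99), MRPS25 (0.75) and MRPS2 (1.05), the last a homologue of the bacterial protein S2, were the other small-subunit rises beyond 1.5-fold. MRPS17 was at 0.78 with an adjusted p of 1.5e-05 from limma (Benjamini-Hochberg) and an adjusted p of 0.17 from treat, so it rose, and a change beyond 1.5-fold was not called although the estimate was 1.71-fold. Its values, among the 3 lowest of the tested members, were 70, 61 and 63 with insulin and 111, 106 and 117 with Torin1.

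In the large subunit, MRPL40, a mitochondria-specific protein, rose most. Its values were 95, 119 and 97 with insulin and 439, 402 and 483 with Torin1, a log2 fold change of 2.08 (SE 0.10). MRPL9, the counterpart of bacterial L9, went from 124, 116 and 139 to 521, 455 and 529 (1.98, SE 0.09). For MRPL46, a mitochondria-specific protein, values of 99, 85 and 81 stood against 299, 283 and 306 (1.74, SE 0.10). In each of the 3 genes the lowest Torin1 value was far above the highest insulin value.

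MRPL16 and MRPL10 belong to the working parts of the large subunit. MRPL16, whose bacterial counterpart lies beside the peptidyl transferase centre, had 201, 192 and 216 with insulin and 578, 571 and 607 with Torin1 (log2 fold change 1.52, SE 0.07). MRPL10, the base of the stalk that recruits translation factors, went from 349, 396 and 402 to 1035, 1073 and 1059 (1.47, SE 0.06). MRPL12, the stalk protein that MRPL10 holds, moved the other way, with 186, 210 and 192 against 150, 160 and 181 (-0.26, SE 0.10, adjusted p = 0.0203 from limma with Benjamini-Hochberg adjustment). The MRPL12 call was lost without insulin replicate 2 and without Torin1 replicate 1 or 2, and after scaling to equal totals. MRPL11, which also sits at the stalk base, rose from 305, 272 and 316 to 625, 569 and 618 (1.02, SE 0.07). The 3 stalk genes therefore did not move in 1 direction.

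MRPL44, a mitochondria-specific protein with a fold like ribonuclease III, is mutated in a cardiomyopathy. It rose from 146, 145 and 144 to 381, 406 and 341 (1.36, SE 0.09). MRPL38, a mitochondria-specific protein of the central protuberance with low values, went from 51, 47 and 61 to 120, 145 and 127 (1.29, SE 0.15). The other large-subunit rises beyond 1.5-fold were MRPL35 (1.35), MRPL42 (1.26), MRPL54 (1.14), MRPL19 (1.04), MRPL50 (1.02), MRPL15 (0.99) and MRPL3 (0.84). Over all 24 rises the adjusted p from limma, with Benjamini-Hochberg adjustment, ran from 1.8e-18 to 2.2e-08, and that of treat from 1.3e-15 to 0.0014. All 24 were kept when any 1 of the 6 libraries was left out.

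The largest fall was in MRPL13, the counterpart of bacterial L13, an early-binding protein of the large subunit. Its values were 1482, 1551 and 1458 with insulin and 521, 488 and 476 with Torin1, a log2 fold change of -1.60 (SE 0.05), or 3.02-fold lower. Here, and in each of the falls that follow, every Torin1 value lay below every insulin value. MRPL36, a very small protein of the large subunit, went from 596, 535 and 596 to 237, 198 and 242 (-1.35, SE 0.08).

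Genes for proteins around the exit of the nascent chain were among the falls. MRPL4, whose bacterial counterpart lines the exit tunnel, had 1214, 1155 and 1203 with insulin and 546, 547 and 532 with Torin1 (-1.13, SE 0.05). MRPL22, also a tunnel protein, had 816, 765 and 873 against 482, 468 and 457 (-0.80, SE 0.06). MRPL47, the counterpart of bacterial L29 at the tunnel's mouth, went from 937, 968 and 1006 to 448, 492 and 472 (-1.04, SE 0.05). Neighbours of these proteins at the exit did not all fall: MRPL23 was at 0.67, and MRPL45, which ties the mitoribosome to the inner membrane, at 0.33, both called higher by limma with Benjamini-Hochberg adjustment (adjusted p = 6.3e-09 and 8.5e-07). MRPL24, another protein of the tunnel exit, was at -0.09 and was not called.

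Of the other large-subunit falls, MRPL34 went from 1023, 1024 and 1056 to 448, 505 and 461 (-1.13, SE 0.05). MRPL18, which in bacteria binds the small ribosomal RNA of the large subunit, had 2319, 2480 and 2521 against 1207, 1162 and 1189 (-1.04, SE 0.04). MRPL28 had 1645, 1547 and 1563 against 740, 806 and 770 (-1.04, SE 0.05). The folds of these 3 genes lay close together, at 2.20, 2.06 and 2.05 lower.

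In the small subunit, MRPS12, the counterpart of the bacterial protein S12 at the decoding centre, fell from 671, 745 and 693 to 300, 295 and 274 (-1.28, SE 0.06). MRPS7, which organizes the head of the subunit, went from 2217, 2213 and 2306 to 931, 979 and 875 (-1.27, SE 0.04). The replicates of each condition lay close together in both genes. MRPS18C, a homologue of the bacterial protein S18, had 332, 358 and 361 with insulin and 175, 171 and 170 with Torin1 (-1.02, SE 0.08). MRPS15 had 1855, 1768 and 1907 against 1096, 1052 and 1052 (-0.79, SE 0.04). Over the 12 falls the limma adjusted p (Benjamini-Hochberg) ran from 1.2e-18 to 4.6e-11, and all 12 were kept without any 1 library.

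The family has 3 paralogs of bacterial S18, and 2 of them were called lower. In the classes above, MRPS18C was counted with the bacterial homologues, but MRPS18A and MRPS18B with the mitochondria-specific genes. Neither MRPS18A nor MRPS18B was called beyond 1.5-fold, so the rises and falls beyond 1.5-fold do not depend on their class. The medians and the plain calls of the classes include them as counted. MRPS18C fell, MRPS18A was at 111, 139 and 99 against 79, 83 and 95 (-0.43, SE 0.14, limma adjusted p = 0.0077, Benjamini-Hochberg), and MRPS18B at 1144, 1120 and 1183 against 1125, 1044 and 1184 (-0.04, SE 0.05). The MRPS18A call was lost without insulin replicate 2, and the MRPS18B groups overlapped. The differences between the paralogs were not tested.

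In 15 members neither direction passed the test. MRPL37, a mitochondria-specific protein, was the steadiest, with 2297, 2371 and 2315 against 2328, 2302 and 2334 (log2 fold change -0.00, SE 0.03). MRPL37, MRPL18 and MRPS34 had the highest means over the 6 libraries, on a scale that is not per length. MRPS34, a mitochondria-specific small-subunit protein mutated in Leigh syndrome, went from 1562, 1627 and 1485 to 1698, 1700 and 1701 (0.13, SE 0.04, limma adjusted p = 0.00638, Benjamini-Hochberg). MRPS28 had 235, 214 and 220 against 231, 240 and 203 (0.01, SE 0.09), and MRPS9 had 421, 405 and 400 against 438, 410 and 368 (-0.02, SE 0.07). MRPS24, with the lowest mean of the tested members, had 49, 28 and 41 against 42, 44 and 49 (0.22, SE 0.21). In MRPL37, MRPS28, MRPS9 and MRPS24 the groups overlapped. MRPL51 was called lower by limma with Benjamini-Hochberg adjustment (-0.10, SE 0.04, adjusted p = 0.0406), but stood at 0.029 after scaling to equal totals and at 0.10 with quantile normalization.

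The uncalled members closest to a treat call, all with estimates over 1.5-fold, were MRPS17 (0.78), MRPL23 (0.67), MRPL39 (0.67), MRPS14 (0.65) and MRPL20 (-0.64), with treat adjusted p from 0.17 to 0.363. The called members with the smallest changes were MRPS25 (0.75), MRPS15 (-0.79) and MRPL22 (-0.80).

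The members' levels drew closer together with Torin1. The SD of log2 values over the 75 members was 1.34 to 1.38 in the insulin libraries and 1.07 to 1.09 in the Torin1 libraries, and the groups did not overlap. Members below 100 normalized units numbered 7, 5 and 7 with insulin and 2, 2 and 2 with Torin1. Over all tested genes the SD of the group means was 2.50 with insulin and 2.34 with Torin1. Among the 25 members with the lowest means (42.2 to 394) 14 were called higher and 6 lower by limma, where 52.9% and 31.9% of all genes in that range were, with a median log2 fold change of 0.78, while all genes in that range had 0.32. The 25 with the highest means (720.5 to 2324) had 10 higher and 11 lower (34.8% and 55.5% of all genes in that range) and a median of -0.04, against -0.22 for all genes in that range. The lower 25 thus had call counts near the share of all genes. Across the 75 members the correlation of mean level with change was -0.311 (Pearson) and -0.319 (Spearman), and across all tested genes -0.135 and -0.194; level and change come from the same libraries, genes are not independent replicates, and the values are not per length.

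**Figure D3:**
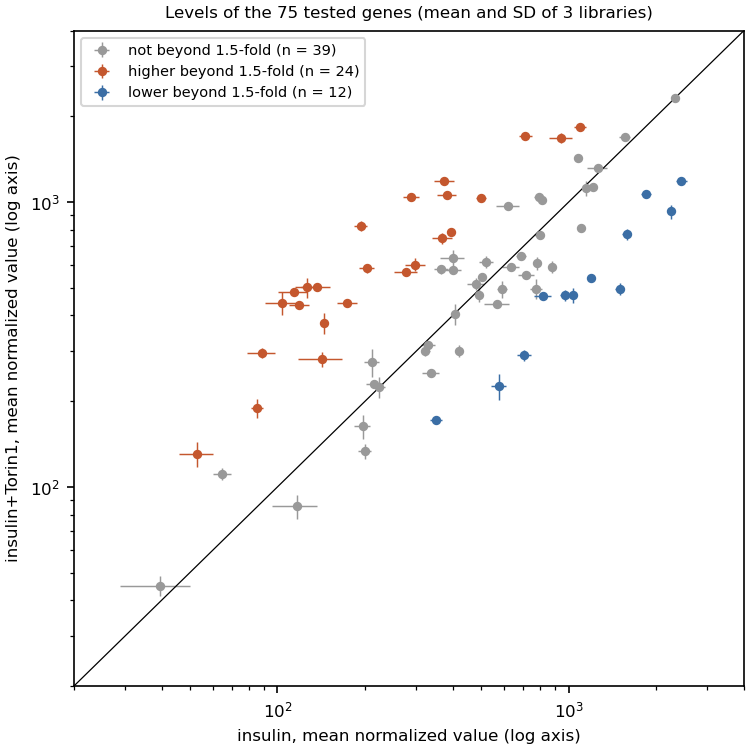
Mean normalized value with Torin1 against that with insulin for the 75 tested genes (both log axes, bars are SD of 3 libraries), with a line of equal values. The 24 genes above the line in orange start mostly at low insulin values, and the 12 in blue below it start at 350 or more.

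The 7 mitoribosomal proteins that carry other symbols moved in both directions too. Of these, 5 rose and 1 fell in limma's test, 4 and 1 of them beyond 1.5-fold, with a median log2 fold change of 0.75. Over all tested genes the shares were 43.4% and 42.5%, and 25.0% and 22.5% beyond 1.5-fold. GADD45GIP1, a large-subunit protein at the tunnel exit, rose from 106, 102 and 112 to 450, 527 and 453 (2.15, SE 0.09). ICT1, a large-subunit protein that can release stalled peptides, rose by 1.35 and CHCHD1, of the small subunit, by 1.25. AURKAIP1, a small-subunit protein, fell from 2110, 2149 and 1994 to 832, 882 and 919 (-1.25, SE 0.05). DAP3, a GTP-binding protein of the small subunit, was at -0.04 and was not called.

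Genes that build or use the mitoribosome also went both ways, as did the table as a whole. Limma's plain test called 43.4% of all tested genes higher and 42.5% lower, and 25.0% and 22.5% were beyond 1.5-fold. Of 29 assembly and ribosomal RNA modification factors, 12 rose and 10 fell (8 and 3 beyond 1.5-fold, median -0.02, but 0.10 after scaling to equal totals and -0.22 with quantile normalization). ERAL1, which chaperones the small-subunit ribosomal RNA, rose from 90, 108 and 110 to 686, 727 and 720 (2.79, SE 0.09). MPV17L2, an assembly factor, fell from 473, 458 and 408 to 92, 78 and 100 (-2.30, SE 0.10). NSUN3, counted in this list and among its 3 falls beyond 1.5-fold although it is a mitochondrial tRNA methyltransferase, was at -1.24. Of 20 genes listed as translation factors, some of them enzymes that modify tRNAs, 10 rose and 9 fell. Among them were TACO1, an activator of cytochrome oxidase translation (1.85), the elongation factor TSFM (1.78) and the release factor MTRF1L (802, 862 and 808 against 292, 299 and 281). Of 27 genes listed under mitochondrial transcription and RNA processing, 12 rose and 13 fell. The list also holds POLG, POLG2, C10orf2 and SSBP1, which serve the replication of mitochondrial DNA. FASTK was at 2.93, FASTKD1 at 1.66 and FASTKD5 at -1.13, and these 3 belong to 1 family of RNA-binding proteins.

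All 13 mRNAs encoded in the mitochondrial genome, the templates of the mitoribosome, were higher with Torin1, by 0.16 to 0.85 on the log2 scale, although with quantile normalization 8 were called higher and 2 lower. Only MT-CO2 (0.85) and MT-CO3 (0.76) were beyond 1.5-fold. MT-CO2, a subunit of cytochrome oxidase, had 17020, 15777 and 16530 with insulin and 28868, 30402 and 29627 with Torin1. On the deposited values these rises had 1 direction, whereas the nuclear genes of the mitoribosome had both. Of 82 tested cytosolic ribosomal protein genes by symbol, 73 were called higher and 5 lower (median 0.67). Among all tested genes 43.4% were called higher and 42.5% lower.

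Of 11 regulators of mitochondrial gene expression, 4 were called higher and 6 lower, or 5 and 5 with quantile normalization. The same test called 43.4% of all tested genes higher and 42.5% lower. MYC, a growth-promoting transcription factor, rose from 363, 295 and 358 to 1293, 1249 and 1333 (1.93, SE 0.07). The coactivator PPARGC1B fell from 794, 797 and 824 to 210, 239 and 206 (-1.88, SE 0.07), and its partner, the nuclear receptor ESRRA, was at -1.57. Of 23 genes of protein import and precursor processing, the route by which mitoribosomal proteins enter, 6 rose and 15 fell, with a median of -0.43, or -0.16 with quantile normalization (7 higher and 13 lower). The import channel gene TIMM23 was at -1.41 and GRPEL1, a cofactor of the import motor, at -1.29, while DNAJC19, another motor component, was at 1.81.

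Some members start beside another gene on the opposite strand. Of 29 such pairs within 1000 nt, 20 had both genes tested, and 9 of the 20 had the same sign of change. Both partners passed 1.5-fold in 6 pairs, 4 in the same direction and 2 in opposite directions. The 4 pairs were MRPL46 with MRPS11, MRPL18 with TCP1, MRPL34 with ABHD8, and MRPS2 with C9orf116. The 2 others were MRPL9 with OAZ3 and MRPS7 with GGA3. Over the 20 pairs the correlation of the changes was 0.0541 (Pearson, a description over pairs).

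The annotation names 98 pseudogenes after 41 of the members, and none of the 98 is a row of the table. Of the 36 members beyond 1.5-fold, 20 have such a copy. How reads shared with a pseudogene were counted is not given in the sources used here, so the values of those members are uncertain to that extent.

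The deposited m6A calls come as a single list for each condition, and each site is listed under 1 replicate only, so the lists cannot be tested against each other. How a site seen in several replicates was entered is not given in the sources used here, so a count under 1 replicate is a count of entries, not of all sites found in that library. On the gene's strand, the members held 256 of 96671 sites in the insulin list, in 59 members, and 223 of 63578 in the Torin1 list, in 62 members. By the replicate a site was listed under, the members' sites numbered 127, 112 and 17 with insulin and 199, 6 and 18 with Torin1. The whole lists were as uneven, with 50656, 39670 and 6345 sites with insulin and 56298, 1552 and 5728 with Torin1. Among sites listed under replicate 1, the members' share was 0.251% with insulin (Wilson 95% interval 0.211% to 0.298%) and 0.354% with Torin1 (0.308% to 0.406%). Intervals cover counting error only. Beside this, the median number of reads over the members' replicate 1 sites was 14 with insulin and 33 with Torin1, and over all replicate 1 sites 9 and 15. The part of read depth in the difference was not tested.

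MRPS6 led with 14 sites in the insulin list and 16 in the Torin1 list, of which 12 and 14 lay where the gene body overlaps SLC5A3 on the same strand (chr21:34073578-34106260, GRCh38) and cannot be assigned to 1 of the 2 genes. MRPS2 (chr9:135499965-135504673, plus strand) held 11 and 13, 9 and 11 of them under replicate 1. MRPS25 (chr3:15042251-15065315, minus strand) held 8 and 16, and under replicate 1 it had 3 entries with insulin and 15 with Torin1, the largest difference among members. MRPS34 (chr16:1771895-1773134, minus strand) held 13 and 8, MRPS27 (chr5:72219403-72320240, minus strand) 10 and 10, and MRPL37 (chr1:54200167-54225489, plus strand) 12 and 7. Same-strand overlap also held the 5 insulin and 2 Torin1 sites of MRPS24 (with URGCP-MRPS24) and 3 insulin sites of MRPL24 (with HDGF). MRPL1, MRPL22, MRPL45, MRPS18B and MRPS36 had no site on the gene's strand in either list. The strand of MRPL23 was unknown, so its sites could not be counted. A list holds only called sites, so a missing site does not show an unmethylated mRNA.

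**Figure D4:**
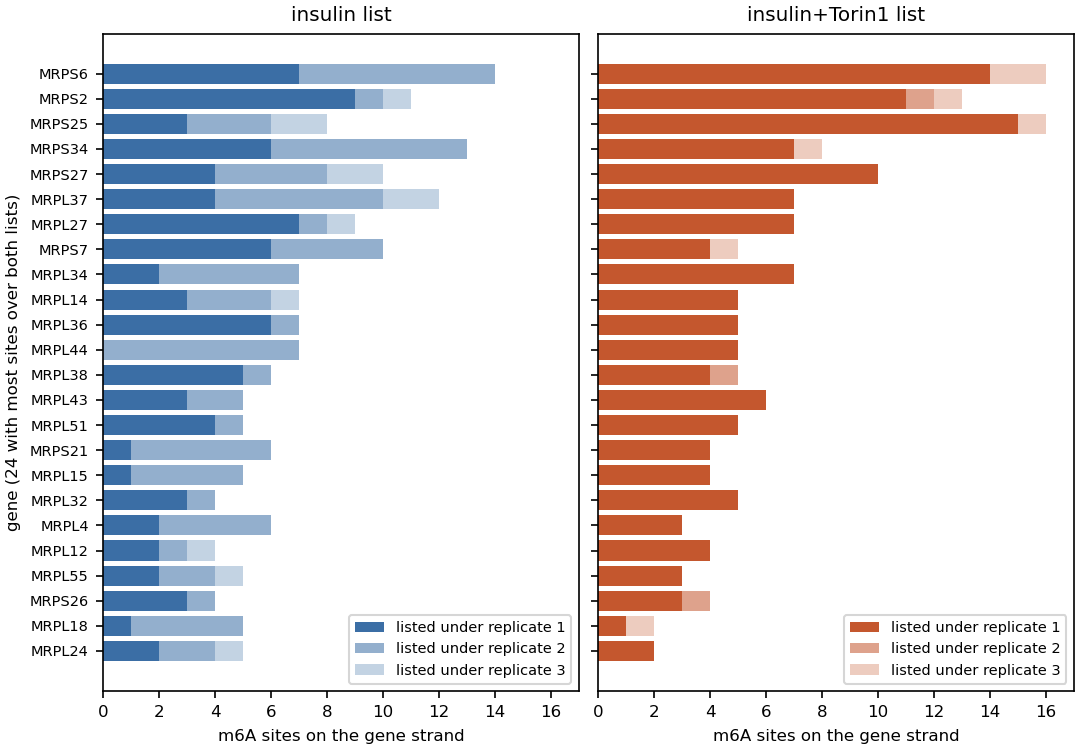
Number of m6A sites on the gene strand in the 24 members with most sites over both lists, for the insulin list (left) and the insulin+Torin1 list (right), shaded by the replicate each site is listed under. In the Torin1 list nearly all sites are under replicate 1 (199 of 223 over all members), and in the insulin list replicate 2 holds 112 of 256.

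Beside the mRNA changes, the site counts depended on which sites were taken. Over all listed sites, the 24 members that rose beyond 1.5-fold had 59 with insulin and 79 with Torin1, the 12 that fell 47 and 32, and the 39 not called beyond 1.5-fold 149 and 111. Under replicate 1 alone, these counts were 25 and 65, 27 and 30, and 74 and 103. The members that fell thus had fewer sites with Torin1 over all replicates and not under replicate 1. After MRPS25, the largest increases in entries under replicate 1 were in MRPS6 (7 to 14) and MRPS27 (4 to 10). Most MRPS6 sites lie where it overlaps SLC5A3, so its increase cannot be assigned to MRPS6. The largest decreases were MRPL49 at 5 and 1, MRPL47 at 2 and 0 and MRPS7 at 6 and 4. MRPS25 rose in mRNA while MRPL47 and MRPS7 fell.

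The same positions recurred in both lists at 113 sites in 41 members, which is 44.1% of the insulin sites (Wilson 95% interval 38.2% to 50.3%) and 50.7% of the Torin1 sites (44.2% to 57.2%). Recurrence rose with the evidence at a site. Of insulin sites with 1 substituted read 33.6% were also in the Torin1 list, of those with 2 it was 47.7%, and of those with 3 or more 79.5% (64.5% to 89.2%). A single substituted read supported 59.4% of the insulin sites and 52.5% of the Torin1 sites. At the 62 positions listed under replicate 1 in both lists, the median number of reads was 27 with insulin and 77 with Torin1, with more reads in Torin1 at 58. The median substituted percentage at these positions was 7.14% and 4.35%. A listed site has at least 1 substituted read, so the lowest percentage that can be listed is higher where reads are fewer. The part of read depth in this difference was not tested.

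The best supported sites were in both lists. With insulin, the adenosine at chr9:137552389 in MRPL41, in the 5-mer GGACT and 166 nt before the gene's end, had 9 substituted of 42 reads. In MRPL28, chr16:367609 (GGACA) had 8 of 28 reads, and in MRPL14, chr6:44113816 (GGACT) had 7 of 121. With Torin1, MRPS2 had 18 of 296 reads at chr9:135503724 (TGACT), MRPS21 had 13 of 151 at chr1:150294029 (GAACT) and MRPL12 had 11 of 172 at chr17:81707396 (AGACC). The MRPS21 site lies 14950 nt from the end, close to the gene's start, and the MRPL12 site 121 nt from the end. Exons were not annotated here, so a site's place is given only by its distance to the gene's end.

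GGAC, the commonest core of the m6A motif, made up 28.1% of the members' insulin sites (Wilson 95% interval 23.0% to 33.9%), against 30.8% of all sites in 1 protein-coding gene. In the Torin1 list it was 27.8% (22.3% to 34.0%) against 32.7%. The members' sites include those where the gene overlaps another, while the comparison set is limited to sites in 1 protein-coding gene. GAAC (21.9%) and AGAC (19.1%) came next in the members' insulin sites. The intervals for GGAC in the 2 lists overlap nearly entirely.

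m6A is known to gather near stop codons and the ends of mRNAs. Of the members' sites, 38.7% in the insulin list (32.9% to 44.8%) and 36.8% in the Torin1 list (30.7% to 43.3%) lay within 500 nt of the annotated gene end, against 9.18% and 9.88% of all sites in 1 protein-coding gene. Here too, only the members' sites include those where a gene overlaps another. The members are short genes, with a median body of 9172.5 nt against 32605 nt for tested protein-coding genes. The part of gene length in the difference was not tested.

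**Figure D5:**
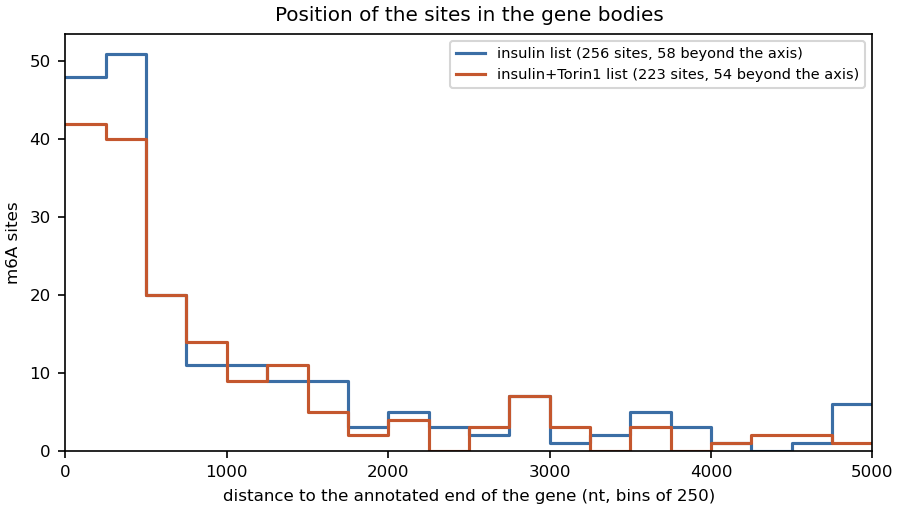
Number of the members' m6A sites in bins of 250 nt from the annotated gene end, for the insulin list (blue, 256 sites) and the insulin+Torin1 list (orange, 223 sites); 58 and 54 sites lie beyond the axis. The first 2 bins hold 48 and 51 insulin sites and 42 and 40 Torin1 sites, and no later bin holds more than 20.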

How the data were processed

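Input RNA-seq and miCLIP libraries of HEK293E cells were grouped from the sample labels. Per the submitters' processing notes, the build was hg38 and the tools included STAR, BWA 0.7.1, DESeq and DESeq2 1.22.2; the role of each is not given in the sources used here. The expression values that the authors deposited are normalized between libraries and rounded, and were used as a score, not as counts, so no count model was run. The m6A value that the authors deposited is a fraction, the substituted reads divided by the reads over a site.

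Values were tested as log2(value + 1) with limma 3.58.1 (trend, and treat at a fold of 1.5) in R 4.3.3, for genes of at least 10 in at least 3 libraries, over 13842 genes in 1 fit. Fold changes on this scale understate low genes. The procedure was tested on simulated data. The 3 libraries of each group limit the precision, and no read depth is printed because the values were rescaled. Positions were RefSeq GRCh38.p14; strand came from the promoter table for 68 members, from most of the sites for 7, and was unknown for 1. Sites are 1-based.

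The members and lists were chosen with earlier results of these data known. Values are printed for up to 12 largest rises and 12 largest falls beyond 1.5-fold, the 3 highest and 3 lowest means, the 3 smallest uncalled changes and, from each other list, the 3 largest called changes; for m6A, for the 6 members with most sites, the 3 largest gains and losses and the 3 best supported sites per list. Others are named where a result touches them, after their values were seen. Alternatives covered scaling, pseudocount, filter, trend, replicate block, left-out libraries and thresholds on sites.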

Additional observations from a re-analysis of the deposited data

How the results depend on the processing

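Members called higher and lower (35 and 25) numbered 40 and 23 after scaling to equal totals, which moved the median of all genes by 0.12, and 38 and 27 with quantile normalization. Of the 36 changes beyond 1.5-fold, 34 and 33 were kept under these settings and 36 under the others run. Leaving out 1 library gave 35 to 37 higher and 22 to 26 lower. With a replicate block 35 were higher and 24 lower, and MRPL51 was not called. Same-numbered libraries did not deviate together (correlations -0.109, -0.0128 and -0.0727 over 10644 genes). With 3 normalized libraries per group, these correlations cannot settle whether same-numbered libraries share a culture or a day. MRPL51 (-0.10) turned to 0.029 with equal totals and 0.10 with quantile normalization. Quantile normalization also turned TUFM (-0.13 to 0.18), YY1 (-0.16 to 0.16), TOMM70A (-0.29 to 0.012), MT-ND1 (0.18 to -0.033), MT-ND4 (0.45 to -0.067) and MT-CYB (0.24 to -0.069). The cause was not tested. The insulin site count of 256 became 127 under replicate 1 only, 104 with at least 2 and 39 with at least 3 substituted reads, and 129 to 239 without 1 replicate. The Torin1 count of 223 became 106 and 63 with those minimums, and 24 to 217 without 1 replicate, the lowest without replicate 1. The share within 500 nt of the gene end was 47.2% with insulin under replicate 1 only, and 51.9% and, with Torin1, 44.3% at 2 or more substituted reads. Counting MRPL55 as mitochondria-specific, chosen after seeing the data, left the counts beyond 1.5-fold the same.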
